A study of Mus musculus with 6 samples.

Results

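Mononuclear osteoclast precursors (OCPs) become osteoclasts by fusing with each other, and the 10 genes described here, *Dcstamp*, *Ocstamp*, *Cd200*, *Cd200r1*, *Cd47*, *Sirpa*, *Cd9*, *Cd81*, *Cd44* and *Adam8*, encode membrane proteins of that step. They were chosen by name as genes of cell-cell fusion, by a rule that uses no measured value, from the 57180 genes in the deposited table, with earlier results of these data known, *Dcstamp* among them. All 10 were among the 13428 genes that passed edgeR's filter on low counts and were tested, and each had between 790 and 32480 estimated counts in every library. The largest difference between genotypes among them was that of *Dcstamp*, which was 1.79-fold higher in lincRNA-EPS knockout (KO) than in wildtype (WT) OCPs. *Cd200* was 1.54-fold higher, while *Cd81* and *Adam8* were 1.37-fold and 1.31-fold lower in KO. None of the 10 passed both limits of the test, which were an adjusted p below 0.01 together with a change of more than 1.3-fold, in edgeR's quasi-likelihood test.

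RNA was sequenced from 3 WT and 3 KO cultures, 1 library per culture. WT cells came from C57BL/6 mice and KO cells from mice made to lack the long noncoding RNA lincRNA-EPS, bred by a commercial animal center. The labels call the cells bone marrow-derived macrophages, and all cultures of both genotypes had M-CSF at 40 ng/ml for 24 h and then RANKL, the cytokine that starts osteoclast differentiation, at 40 ng/ml for 48 h. The submitters call the 3 cultures of a genotype independent, while the number and age of the mice behind them are not given in the sources used here, and no culture without RANKL or with LPS was analysed here. Values are in CPM (a gene's counts scaled to a fixed library total) after scaling of the libraries by TMM, and differences are log2 fold changes of KO against WT with their standard error (SE).

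Cell fusion in this lineage needs cells that recognise, adhere to and finally merge with each other. *Dcstamp* and *Ocstamp* encode DC-STAMP and OC-STAMP, multi-pass membrane proteins without which osteoclast precursors stay mononuclear. *Cd200* and *Cd47* encode membrane proteins whose receptors on macrophages are encoded by *Cd200r1* and *Sirpa*. *Cd9* and *Cd81* encode tetraspanins, which organise other proteins in the membrane, *Cd44* encodes the receptor for hyaluronan and osteopontin, and *Adam8* encodes a metalloprotease with a disintegrin domain. The deposited table lists the domain DC_STAMP for the first pair, a tetraspanin domain for *Cd9* and *Cd81*, and immunoglobulin domains for the proteins of both recognition pairs.

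The primers with which the study measured *Dcstamp* and *Ocstamp* by qRT-PCR are shown because they mark which part of each transcript its assays read. Capitals in the *Dcstamp* forward primer mark the 10 of its 21 bases that lie in exon 3, the others lying in exon 2, so that it spans a splice junction.
Dcstamp forward primer: tacgtggagagAAGCAAGGAA
Dcstamp reverse primer: acactgagacgtggtttaggaat
Ocstamp forward primer: ctgtaacgaactactgacccagc
Ocstamp reverse primer: cccaggcttaggaagacgaag
The *Dcstamp* pair matched 1 of the 6 transcripts of the gene in GENCODE M21, at bases 1068 to 1167 of 1997, and its reverse primer lies in exon 3 of 4. The *Ocstamp* pair matched the single annotated transcript at bases 206 to 364 of 3657, with both primers in exon 2 of 3. The counts analysed here sum over all transcripts of a gene.

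Promoter sequences are shown for *Cd200*, *Cd81* and *Adam8*, the genes other than *Dcstamp* with an unadjusted p-value under 0.05, as the 250 bases before the RefSeq start in GRCm38.p6. The counts were made on GRCm39, and these positions were used with no measured value. RefSeq windows were at hand for 6 of the 10 genes, and *Dcstamp*, *Ocstamp*, *Cd200r1* and *Sirpa* had none. Capitals mark the GC box GGGCGG on either strand.
Cd200 promoter, chr16:45409054-45409303, minus strand: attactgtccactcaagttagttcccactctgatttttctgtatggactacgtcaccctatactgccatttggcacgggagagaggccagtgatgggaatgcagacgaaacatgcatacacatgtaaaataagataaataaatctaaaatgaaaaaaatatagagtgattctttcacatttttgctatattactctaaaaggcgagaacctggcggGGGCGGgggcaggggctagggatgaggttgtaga
Cd81 promoter, chr7:143052500-143052749, plus strand: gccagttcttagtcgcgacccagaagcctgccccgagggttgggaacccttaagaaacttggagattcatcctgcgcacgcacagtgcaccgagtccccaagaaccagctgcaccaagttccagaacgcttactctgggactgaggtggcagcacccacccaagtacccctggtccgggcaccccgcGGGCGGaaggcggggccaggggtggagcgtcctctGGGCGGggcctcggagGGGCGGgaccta
Adam8 promoter, chr7:139992563-139992812, minus strand: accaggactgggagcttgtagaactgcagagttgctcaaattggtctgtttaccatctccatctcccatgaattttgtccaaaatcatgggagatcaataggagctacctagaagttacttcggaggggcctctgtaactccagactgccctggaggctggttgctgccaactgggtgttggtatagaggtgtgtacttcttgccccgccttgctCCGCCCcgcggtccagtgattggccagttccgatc
The windows of *Cd200* and *Adam8* each held 1 GC box and that of *Cd81* held 3, and 32.7% of the 32851 windows of this length held at least 1. The AP-1 motif TGANTCA, found in 6.75% of windows, and the NFAT core GGAAA, found in 55.6%, were in none of the 3 on either strand. No match of a motif overlapped one of another motif in the windows of the 6 genes.

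LincRNA-EPS, listed as *Ttc39aos1*, was read at 20, 37 and 41 counts in the WT libraries and at 0 in each KO library, where 3 counts correspond to between 0.150 and 0.169 CPM. The libraries held between 17757351 and 19998611 counts. The summed level of 8 macrophage markers was 16498 to 17638 CPM in WT and 14863 to 17667 CPM in KO, with *Lyz2* and *Cd68* highest, and all 8 had a negative log2 fold change. That of 9 osteoclast markers was 5071 to 5500.5 CPM in WT and 6717 to 7141 CPM in KO, with *Mmp9* and *Ctsk* highest, and 7 had a positive and 2 a negative log2 fold change. That of 10 neutrophil markers was 1352 to 1527 CPM in WT and 1772.5 to 2143 CPM in KO, with *S100a9* and *Ngp* highest. Of the 9 neutrophil markers tested, 7 had a positive and 2 a negative log2 fold change. The defining marker of neutrophils, *Ly6g*, had 5, 0, 4, 2, 0 and 4 counts in the 6 libraries. The interferon-stimulated genes summed to 148 to 152 CPM in WT and 119 to 126 CPM in KO. Markers of T cells, B cells and erythroid cells summed to under 10 CPM in every library, stromal markers to at most 21.8 CPM and megakaryocyte markers to at most 220 CPM. Endothelial markers summed to 101.5 to 131 CPM in WT and 57.0 to 91.4 CPM in KO. Most of this was *Vwf*, with a mean of 97.8 CPM in WT and 60.7 CPM in KO. *Kdr* was next, at 8.80 and 7.78 CPM with overlapping genotypes. Dendritic cell markers summed to 39.2 to 42.3 CPM in WT and 47.6 to 51.6 CPM in KO. In these bulk samples, a lower share of cells that express a gene cannot be told apart from less of its RNA per cell, and the part of the marker differences in the results was not tested.

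*Dcstamp* (ENSMUSG00000022303, chromosome 15) was measured at 118, 109 and 119 CPM in WT replicates 1, 2 and 3. In KO replicates 1, 2 and 3 it was at 193, 199 and 228 CPM. The lowest KO library was thus well above the highest WT library, and the spread within each genotype was small beside the gap. Its mean was 115 ± 5.60 CPM in WT and 207 ± 18.5 CPM in KO (SD, n = 3 each). The log2 fold change was 0.84 (SE 0.099, edgeR adjusted p = 0.0635), number 3 of the genes tested by p-value. The adjusted p missed 0.01, and 1 of the genes tested, or 0.00745%, passed both limits in this fit.

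*Ocstamp* (ENSMUSG00000027670, chromosome 2), the gene of the related protein OC-STAMP, did not show this separation. It had 63.3, 68.7 and 60.6 CPM in WT replicates 1 to 3, and 84.3, 77.1 and 58.3 CPM in KO replicates 1 to 3. KO replicates 1 and 2 were above all WT libraries, and KO replicate 3 was below them. The log2 fold change was 0.19 (SE 0.14, edgeR adjusted p = 0.394), and 0.33 without KO replicate 3 but 0.080 without KO replicate 1.

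**Figure D1:**
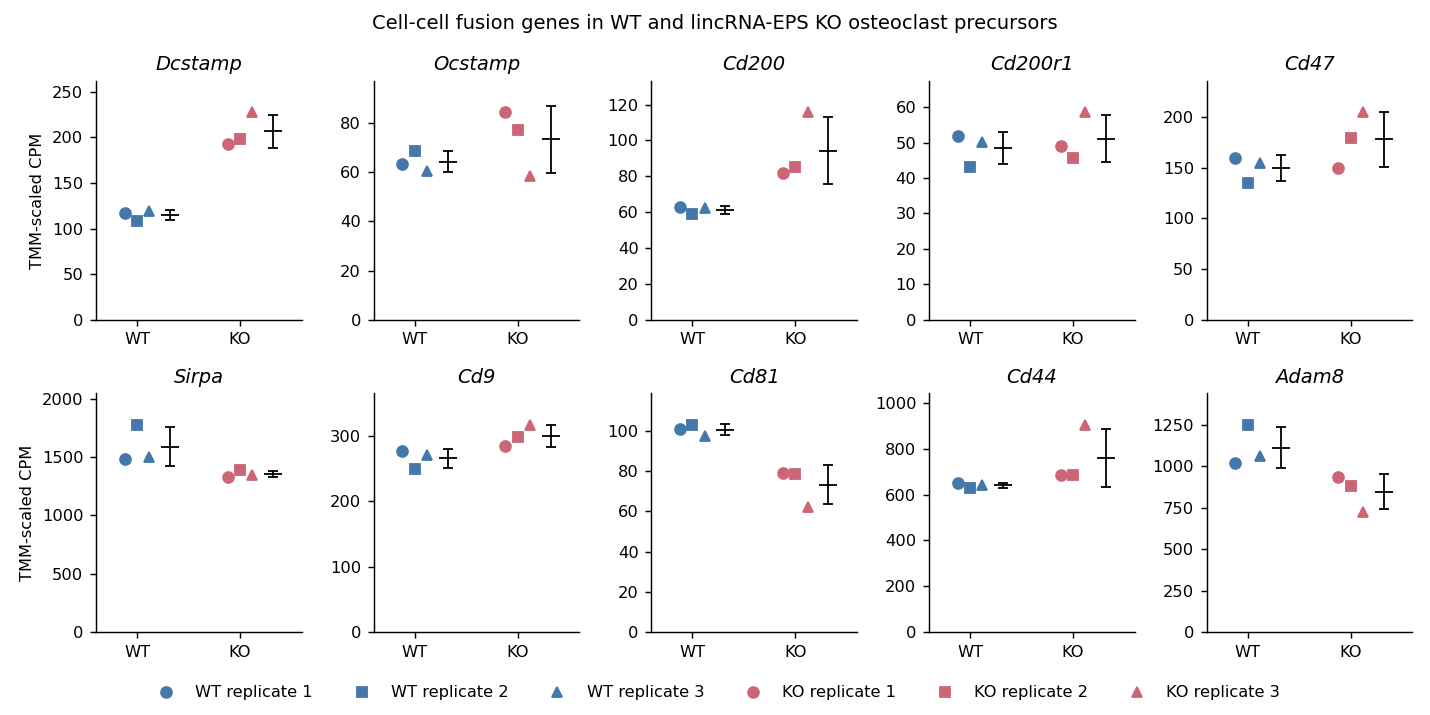
TMM-scaled CPM (linear axis from 0, own scale in each panel) of the 10 fusion genes, with 1 point per library and the mean ± SD of 3 libraries per genotype beside them. KO libraries are all above WT for *Dcstamp*, *Cd200*, *Cd9* and *Cd44*, all below for *Sirpa*, *Cd81* and *Adam8*, and overlap with WT for the other 3 genes.

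*Cd200* (ENSMUSG00000022661, chromosome 16), whose product holds macrophages in check through its receptor, had the second largest difference. WT replicates 1 to 3 had 63.0, 58.9 and 62.1 CPM. KO replicates 1 to 3 had 81.8, 85.4 and 115.8 CPM. All KO libraries were above all WT libraries, and KO replicate 3 stood well above the other KO libraries. The log2 fold change was 0.62 (SE 0.14, edgeR adjusted p = 0.147), and 0.45 without KO replicate 3. *Cd200r1* (ENSMUSG00000022667, chromosome 16), the gene of the CD200 receptor, had 51.8, 43.2 and 50.2 CPM in WT and 49.0, 45.7 and 58.6 CPM in KO. Its genotypes overlapped, with a log2 fold change of 0.077 (SE 0.12, edgeR adjusted p = 0.706) that became -0.033 without KO replicate 3 and 0.15 without KO replicate 2.

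*Cd47* (ENSMUSG00000055447, chromosome 16), the ligand of SIRPα, had 160.1, 135 and 154 CPM in WT replicates 1 to 3. In KO replicates 1 to 3 it had 150.0, 179 and 205 CPM. KO replicate 1 lay within the range of WT, and the other KO libraries were above it. The log2 fold change was 0.25 (SE 0.13, edgeR adjusted p = 0.241), and 0.13 without KO replicate 3. *Sirpa* (ENSMUSG00000037902, chromosome 2), the receptor gene, had 1484, 1778 and 1498 CPM in WT and 1330.5, 1386 and 1348 CPM in KO. All KO libraries were below all WT libraries, and WT replicate 2 was the farthest from the rest. The log2 fold change was -0.23 (SE 0.11, edgeR adjusted p = 0.210), and -0.14 without WT replicate 2.

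Of the tetraspanin genes, *Cd9* (ENSMUSG00000030342, chromosome 6) had 276, 249 and 271 CPM in WT replicates 1 to 3 and 284, 298 and 318 CPM in KO replicates 1 to 3. The genotypes did not overlap, but the gap between the highest WT and the lowest KO library was small beside the spread within each genotype. Its log2 fold change was 0.18 (SE 0.092, edgeR adjusted p = 0.244). *Cd81* (ENSMUSG00000037706, chromosome 7) was lower in KO instead, with 101, 103 and 97.7 CPM in WT and 79.2, 78.6 and 62.3 CPM in KO. All KO libraries were below all WT libraries, and KO replicate 3 was the lowest. Its log2 fold change was -0.46 (SE 0.11, edgeR adjusted p = 0.147), and -0.35 without KO replicate 3, which is under the fold change limit of 0.379 on this scale.

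*Cd44* (ENSMUSG00000005087, chromosome 2) had 653, 629 and 640 CPM in WT replicates 1 to 3, in numbers close to each other. KO replicates 1 to 3 had 685.5, 685 and 906 CPM, so that KO replicate 3 stood apart from the other KO libraries, which were just above WT. The log2 fold change was 0.24 (SE 0.13, edgeR adjusted p = 0.236), and 0.10 without KO replicate 3. *Adam8* (ENSMUSG00000025473, chromosome 7) had 1021, 1251 and 1061 CPM in WT and 935, 880 and 727 CPM in KO. All KO libraries were below all WT libraries. Its log2 fold change was -0.39 (SE 0.13, edgeR adjusted p = 0.148), and -0.29 without KO replicate 3.

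Over the set, 7 genes had a positive and 3 a negative log2 fold change, with a median of 0.18 where that of all genes tested was 0.0091. With a correction for GC content, explained with the next result, 6 were positive and 4 negative, with a median of 0.048. At an unadjusted p-value under 0.05, *Dcstamp* and *Cd200* were higher in KO and *Cd81* and *Adam8* lower, beside 13.0% and 13.2% of the genes tested. Genotypes did not overlap for 4 genes that were higher in KO and for 3 that were lower, where 16.9% and 18.8% of all genes tested did so in these directions. DESeq2's Wald test, run on the same libraries, put *Dcstamp* (adjusted p = 8.78e-11) and *Cd200* (adjusted p = 0.00592) past both limits, as it did 1.22% of the 10357 genes to which it gave an adjusted p.

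A trend with transcript GC content ran through the libraries. Across the 13176 genes tested with a known GC content, which are not independent replicates, the difference between KO and WT had r = -0.56 with GC content. The difference between KO replicates 3 and 1, of the same genotype, had r = -0.58, and that between WT replicates 2 and 1 had r = 0.49. The fusion genes were spread along this trend. *Cd200r1*, *Cd47*, *Cd200*, *Cd44*, *Cd9* and *Dcstamp*, with 41.9% to 47.4% GC, had positive log2 fold changes, and of the 4 genes with 50.3% to 54.9% GC, *Cd81*, *Ocstamp*, *Sirpa* and *Adam8*, only *Ocstamp* had. Genes tested within 1 percentage point of GC of *Dcstamp* had a median log2 fold change of 0.050, and those near *Cd200* 0.18. The genes near *Cd81* had a median of -0.038, those near *Ocstamp* -0.14 and those near *Adam8* -0.18. *Cd47*, *Cd44*, *Cd9* and *Sirpa* lay within 0.1 of the median of genes with their GC content, and the other 6 were farther from it.

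**Figure D2:**
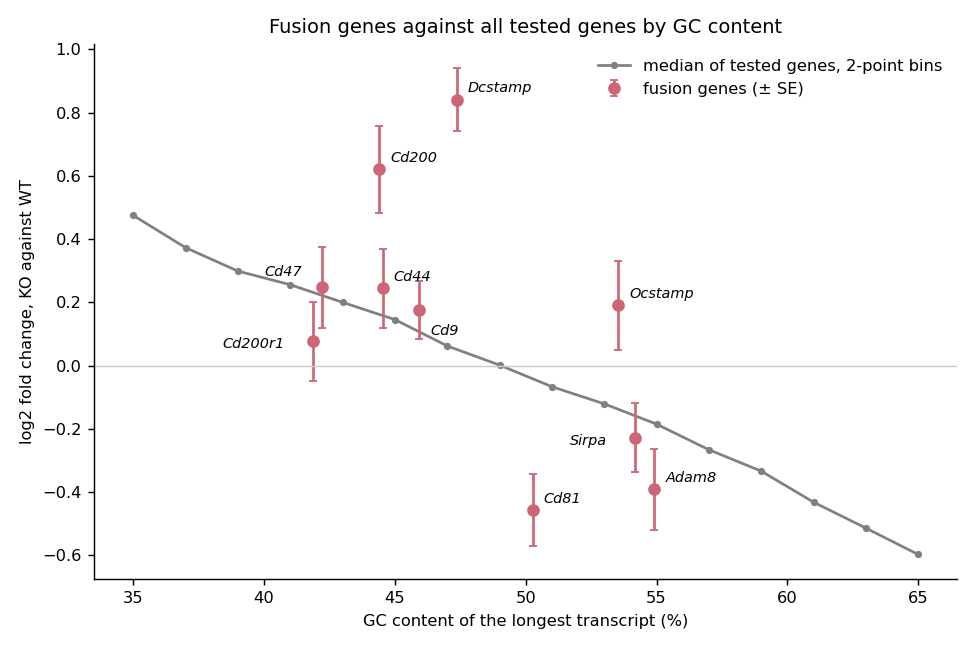
Log2 fold change of KO against WT (± SE) of the 10 fusion genes against the GC content of the longest transcript in percent, with the median of all genes tested in bins of 2 percentage points as a line. *Dcstamp*, *Cd200* and *Ocstamp* are above the line and *Cd81*, *Adam8* and *Cd200r1* below it, while *Cd47* and *Sirpa* are close to it.

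Each library was therefore also corrected for its trend with GC content, a step used after earlier results of these data were known. Corrected, *Dcstamp* rose in KO past both limits, with a log2 fold change of 0.77 (SE 0.069, edgeR adjusted p = 0.00506), as 0.0223% of the genes tested did in either direction. *Cd200* had 0.46 (SE 0.087, edgeR adjusted p = 0.0490) and passed when the limit on the adjusted p was set at 0.05 and that on fold change kept, as did 0.856% of the genes tested. With a block for the replicate number added, its edgeR adjusted p was 0.0797. With 1 library left out it was between 0.0158 and 0.159, and under 0.05 only without KO replicate 1. Without KO replicate 3 the log2 fold change of *Cd200* was 0.36, under the limit of 0.379. *Cd81* was at -0.42 (SE 0.085, edgeR adjusted p = 0.0574). *Ocstamp* moved from 0.19 to 0.31 (edgeR adjusted p = 0.0880), and all its KO libraries were then above all WT libraries. *Adam8* went to -0.22 (edgeR adjusted p = 0.113), *Cd200r1* turned to -0.15 (edgeR adjusted p = 0.204), and *Cd47*, *Cd44*, *Cd9* and *Sirpa* were between -0.068 and 0.087. The genotypes of *Cd44* and *Sirpa*, apart without the correction, then overlapped, and all KO libraries of *Cd200r1* were below all WT libraries. DESeq2 with the correction put *Dcstamp*, *Cd200* and *Cd81* past both limits, as it did 3.11% of 10821 genes. With the correction and each library left out in turn, edgeR called *Dcstamp* without KO replicate 1 and without KO replicate 3, and its adjusted p was up to 0.0870 without the other libraries, while its log2 fold change stayed between 0.72 and 0.80 in all 6 fits.

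**Figure D3:**
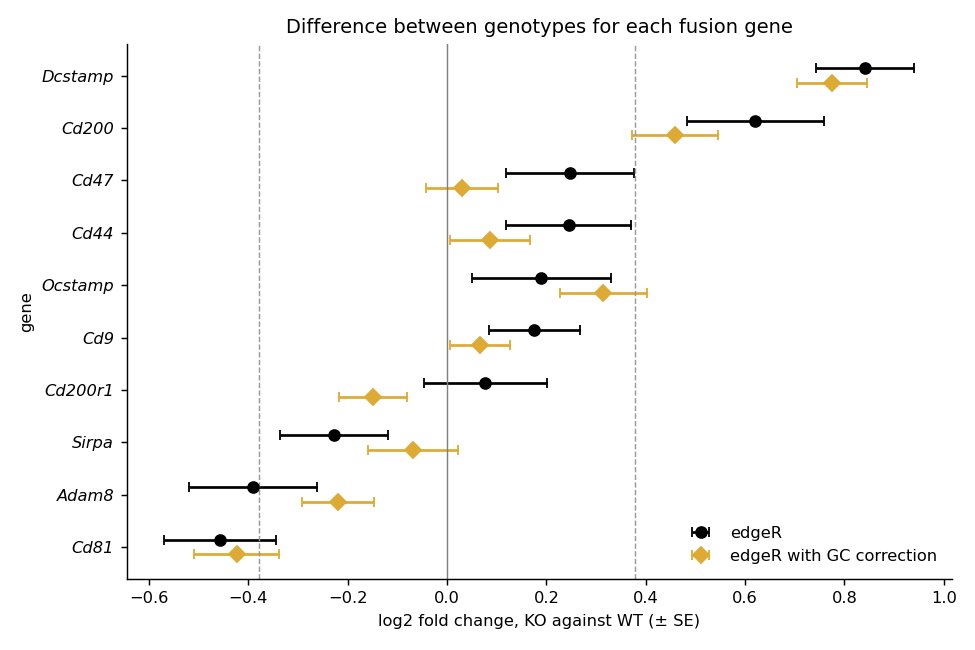
Log2 fold change of KO against WT (± SE, 3 libraries per genotype) of each fusion gene in edgeR, without and with the GC correction, with dashed lines at the fold change limit of 0.379. *Dcstamp* and *Cd200* stay above the limit in both, *Cd81* stays below it on the negative side, *Adam8* moves from just outside the lines to inside them, and the other genes lie inside in both.

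Levels between genes were compared per kb of the longest transcript in GENCODE M21. In WT the order was *Sirpa* (398 ± 41.6 CPM per kb), *Adam8* (303 ± 33.5), *Cd9* (216 ± 11.8), *Cd44* (114 ± 2.15), *Cd81* (62.6 ± 1.73) and *Dcstamp* (57.7 ± 2.80 CPM per kb, SD, n = 3). *Cd47* and *Cd200* followed at 28.6 ± 2.47 and 26.1 ± 0.911 CPM per kb, and *Ocstamp* and *Cd200r1* at 17.6 ± 1.14 and 17.5 ± 1.65 CPM per kb. The ranges of the 3 libraries overlapped within each of these last pairs, although *Cd47* was above *Cd200* in every single WT library, while *Ocstamp* and *Cd200r1* changed places between libraries. In KO, *Dcstamp* was at 103 ± 9.25 CPM per kb and thus above *Cd81* at 45.6 ± 5.97, in the reverse of their order in WT. *Cd200*, at 40.2 ± 7.96 CPM per kb in KO, and *Cd47*, at 33.9 ± 5.23, also had overlapping ranges, with *Cd200* the higher of the pair in every KO library.

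Related genes of the set were also set against each other within each library. The ratio of *Dcstamp* to *Ocstamp*, in CPM per kb, was 3.40, 2.90 and 3.61 in WT replicates 1 to 3, and 4.20, 4.72 and 7.15 in KO replicates 1 to 3. The genotypes did not overlap, and KO replicate 3 had the highest ratio. The ratio of *Cd200* to its receptor gene *Cd200r1* was 1.44, 1.61 and 1.46 in WT and 1.97, 2.21 and 2.33 in KO. The ratio of *Cd47* to its receptor gene *Sirpa* was 0.0818, 0.0578 and 0.0782 in WT and 0.0855, 0.0981 and 0.115 in KO, where the highest WT and the lowest KO library were close. The ratio of *Cd9* to *Cd81* was 3.58, 3.16 and 3.63 in WT and 4.70, 4.97 and 6.67 in KO. Without the GC correction all 4 ratios were higher in every KO library than in every WT library, and no test was run on them. How often other pairs of genes were apart in this way was not counted, while 16.9% and 18.8% of single genes tested were, higher and lower. In the order given, the GC content of the first gene differed from that of the second by -6.17, 2.53, -12.0 and -4.35 percentage points. With the GC correction, the difference of the log2 ratio between KO and WT was 0.46, 0.61, 0.10 and 0.49 in the same order, against 0.66, 0.53, 0.46 and 0.64 without it, and the genotypes then overlapped for *Cd47* to *Sirpa*.

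**Figure D4:**
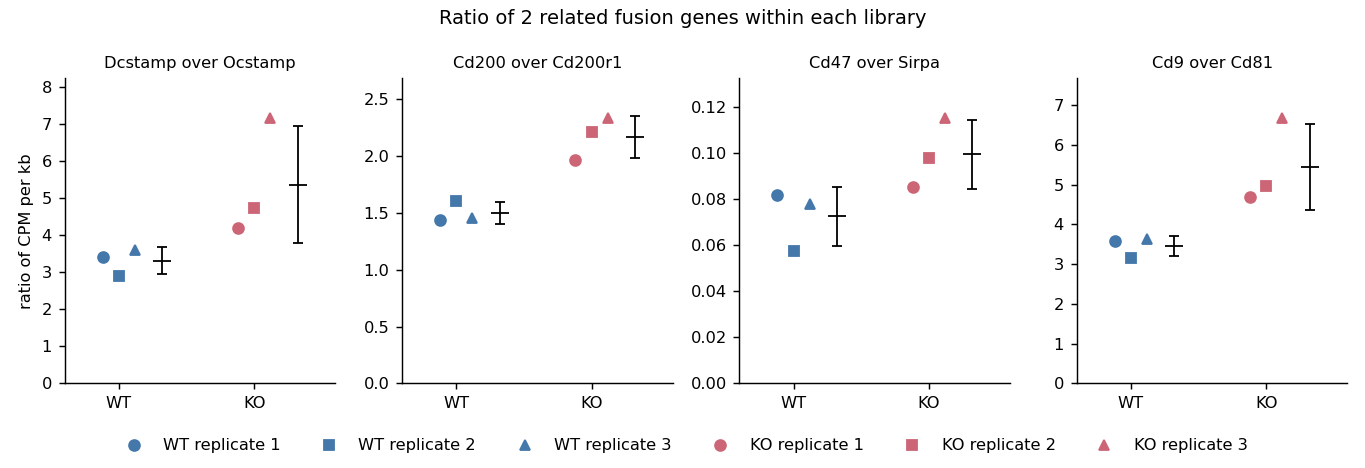
Ratio of CPM per kb of the first to the second gene of 4 related pairs in each library (linear axis from 0), with the mean ± SD of 3 libraries per genotype. In each panel all KO points are above all WT points, by the narrowest margin for *Cd47* over *Sirpa*, which overlaps once corrected for GC content (not plotted).

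The genes with the profile most like that of *Dcstamp* over the 6 libraries, by the root mean square difference of centred log2 CPM over 8867 genes with a mean of at least 10 CPM, included *Ctsk* (0.042), *Atp6v0d2* (0.10), *Gm56906* (0.11) and *Mir142hg* (0.12). *Ctsk* encodes cathepsin K, the main collagen-degrading protease of osteoclasts, and *Atp6v0d2* encodes a subunit of the osteoclast V-ATPase without which precursors fuse poorly. *Ctsk* was at 976, 875 and 975 CPM in WT and 1472, 1579 and 1769 CPM in KO. Of the other members, *Cd200* was the nearest to *Dcstamp*, with a difference of 0.15, as number 19 in this order, and *Cd81* the farthest, with 0.68.

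Apart from the 10 genes, 36 other genes of cell fusion were read from the same fit, a list written with earlier results of these data known. Of these, 32 were tested and *Tspan10*, *Adam12*, *Syna* and *Synb* were under the filter on low counts. None passed both limits in edgeR, 4 were higher and 7 lower in KO at an unadjusted p-value under 0.05, where 13.0% and 13.2% of all genes tested were, and the median log2 fold change was -0.029. *Lgals3*, which encodes galectin-3 and had the highest level, was at 2962, 3233 and 3057 CPM in WT and 2654, 2838 and 2434.5 CPM in KO (log2 fold change -0.22, SE 0.11, or -0.045 with the GC correction). *Anxa5*, which encodes a phosphatidylserine-binding protein, had a log2 fold change of 0.15 (SE 0.10), or 0.080 without KO replicate 3. *Atp6v0d2* had the smallest p-value, at 228, 177 and 223 CPM in WT and 338.5, 353 and 461 CPM in KO. Its log2 fold change was 0.88 (SE 0.15, edgeR adjusted p = 0.136), or 0.64 with the GC correction and 0.73 without KO replicate 3. DESeq2 put *Atp6v0d2* past both limits as the only gene of this list. *Stab1*, the gene of the scavenger receptor stabilin-1, was lower, at 762, 951 and 802 CPM in WT and 638, 530.0 and 374 CPM in KO, with a log2 fold change of -0.71 (SE 0.18, edgeR adjusted p = 0.147), or -0.46 with the GC correction.

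All 17 genes of a list of regulators of osteoclast differentiation and fusion genes were tested, among them *Spi1* and *Jdp2* with the highest levels, whose log2 fold changes of -0.18 (SE 0.13) and -0.091 (SE 0.20) turned to 0.15 and 0.13 with the GC correction, and were -0.058 and 0.11 without KO replicate 3. None passed both limits in edgeR, 1 was higher and 7 were lower at an unadjusted p-value under 0.05 (13.0% and 13.2% of all genes tested), and the median log2 fold change was -0.18, or -0.059 with the GC correction. *Jun*, which encodes a subunit of AP-1, was at 150.1, 183 and 149.8 CPM in WT and 116, 113 and 79.8 CPM in KO, with a log2 fold change of -0.65 (SE 0.15, edgeR adjusted p = 0.147). DESeq2 put *Jun* past both limits, and with the GC correction edgeR gave it a log2 fold change of -0.46 and an adjusted p = 0.0438.

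Of 25 ligands, membrane partners and signalling effectors of the fusion proteins, 21 were tested, and the hyaluronan synthase genes *Has1*, *Has2* and *Has3* and *Itga3* were under the filter. None passed both limits in edgeR or DESeq2, 1 was higher and 6 were lower at an unadjusted p-value under 0.05 (13.0% and 13.2% of all genes tested), and the median log2 fold change was -0.11. *Spp1*, the gene of the CD44 ligand osteopontin, was at 1397, 1308 and 1442 CPM in WT and 1369, 1455 and 1777 CPM in KO, and the genotypes overlapped (log2 fold change 0.15, SE 0.12, but -0.041 with the GC correction and 0.031 without KO replicate 3). *Msn*, the gene of moesin, which links CD44 to actin, had a log2 fold change of -0.10 (SE 0.093), or -0.16 with the GC correction. *Ezr*, the gene of the related linker ezrin, had -0.38 (SE 0.11, edgeR adjusted p = 0.147), or -0.27 with the GC correction. *Igsf8*, whose product binds CD9 and CD81, had -0.66 (SE 0.22, edgeR adjusted p = 0.148). *Igsf8* was at -0.37 with the GC correction and at -0.43 without KO replicate 3, and the median of the list was -0.048 with the correction. *Cd63*, *Cd82* and *Cd151* stand in both this list and that of the other fusion genes.

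**Figure D5:**
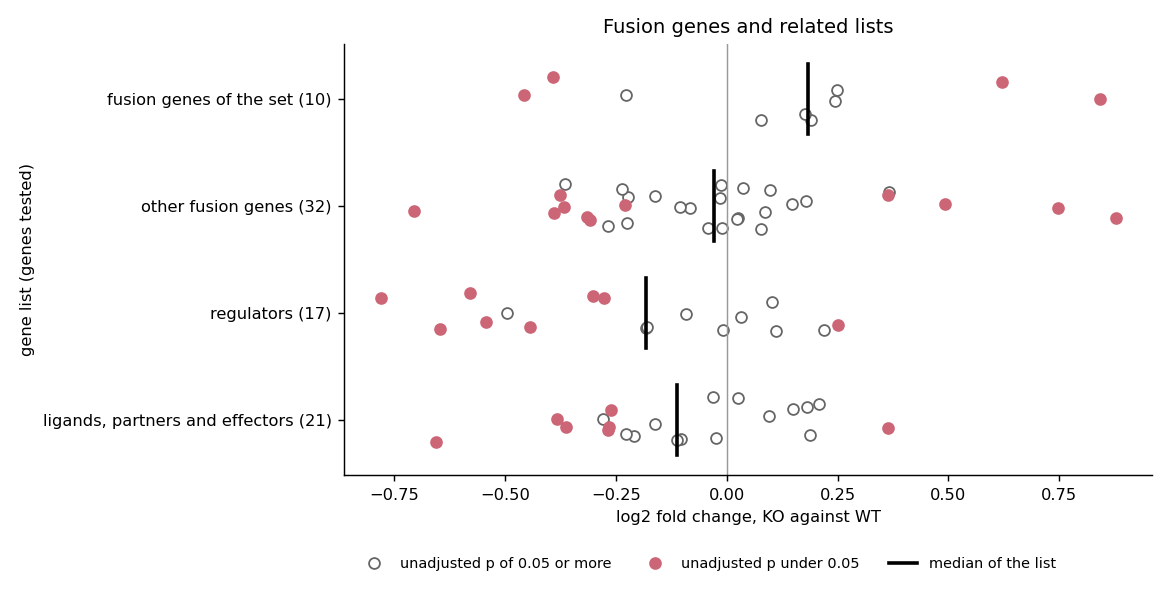
Log2 fold change of KO against WT of the tested genes in the set of 10 and in 3 related lists, with 1 point per gene, filled at an unadjusted p-value under 0.05, and the median of each list as a bar. The medians are 0.18 for the 10 genes, -0.029 for the other fusion genes, -0.18 for the regulators and -0.11 for the ligands, partners and effectors, and with the GC correction (not plotted) 0.048, -0.020, -0.059 and -0.048.

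Close relatives of the members matter for the counts, since reads from similar sequences can be divided between genes. *Cd200r4*, next in kind to *Cd200r1*, was at 43.0, 39.2 and 42.6 CPM in WT and 38.1, 38.6 and 59.5 CPM in KO, a level near that of *Cd200r1*, with a log2 fold change of 0.13 (SE 0.17) that turned to -0.15 with the GC correction and to -0.12 without KO replicate 3. The values of *Cd200r1* and *Cd200r4* are uncertain to the extent that reads were divided between them. *Cd200r3* had at most 0.625 CPM in a library, *Cd200r2* at most 0.313 CPM, and *Cd200l1* was at 0 in all libraries. *Sirpb1a*, *Sirpb1b* and *Sirpb1c*, relatives of *Sirpa*, were between 2.96 and 23.7 CPM, far under the level of *Sirpa*, and had log2 fold changes of 0.0045, -0.12 and 0.029, which with the GC correction were -0.20, -0.43 and -0.28 and without KO replicate 3 were -0.078, -0.31 and -0.090, and *Sirpd* had at most 0.577 CPM. Of the relatives of *Adam8*, *Adam15* was at 235, 322 and 246 CPM in WT and 198, 204 and 138 CPM in KO (log2 fold change -0.57, SE 0.17, edgeR adjusted p = 0.147, or -0.29 with the GC correction), *Adam19* had 0.35 (SE 0.22), and *Adam33* was under 1 CPM in every library.

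The table's own annotation gives a term of cell fusion, syncytium formation or multinuclear osteoclast differentiation to 24 genes, a search made after the data were seen. *Dcstamp*, *Ocstamp*, *Cd81* and *Adam8* are among them, and 14 of the other 20 were tested. Of these 14, 5 had a positive and 9 a negative log2 fold change, with a median of -0.023, and 2 were higher and 2 lower in KO at an unadjusted p-value under 0.05, beside 13.0% and 13.2% of all genes tested. Those were *Cd109* (0.47, SE 0.12) and *Oscar* (0.70, SE 0.13), a costimulatory receptor of osteoclasts, on the higher side, and *Adam9* (-0.23, SE 0.082) and *Sbno2* (-0.54, SE 0.20), a gene whose product acts on *Dcstamp* transcription, on the lower. With the GC correction *Sbno2* was at -0.22, and without KO replicate 3 at -0.34.

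The members lie on chromosomes 2, 6, 7, 15 and 16, and 77 tested genes start within 500 kb of at least 1 of them in GENCODE M21. Of these neighbours, 34 had a positive and 43 a negative log2 fold change, and 6 were higher and 13 lower at an unadjusted p-value under 0.05, against the same 13.0% and 13.2% of all genes. Near *Dcstamp* there were 2, both with negative values, of which *Lrp12* had -0.22 (SE 0.085), so its neighbours did not share its direction. Near *Cd200* there were 7, of which 6 had positive values and 3, *Btla*, *Gcsam* and *Atg3*, had an unadjusted p-value under 0.05, with log2 fold changes of 0.73 (SE 0.18), 0.65 (SE 0.19) and 0.32 (SE 0.11). With the GC correction they had 0.47, 0.44 and 0.025. Near *Cd81* there were 7 as well, of which *Cdkn1c*, the gene of a cell cycle inhibitor, had -0.82 (SE 0.12), or -0.47 with the GC correction. These neighbours were named after their values were seen.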

How the data were processed

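RNA-seq libraries from 3 WT and 3 KO cultures were grouped by the genotype in their labels. The authors deposited estimated counts per gene from stranded mRNA libraries, without normalization, and the submitters' processing notes name fastp, HISAT2, StringTie, RSEM and GRCm39. The authors' means, KEGG and Reactome terms in the table were not used. These counts were rounded before testing. In R 4.3.3, edgeR 4.0.16 was used with filterByExpr, TMM scaling, glmQLFit (legacy = FALSE) and glmQLFTest, and p-values were adjusted over all 13428 genes after Benjamini and Hochberg. A gene passed the limits with an adjusted p below 0.01 and a change of more than 1.3-fold. Exact permutation of 3 against 3 libraries reaches p = 0.1 at best and was not run.

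Alternatives were DESeq2 1.42.0 (its size factors or its Wald test), limma-voom (limma 3.58.1), library size alone, edgeR's legacy test, no filter, a minimum of 10 counts per library, other limits, a replicate block, each library left out, and a GC correction (a natural spline with 5 degrees of freedom on each library's deviation, as offsets). The GC correction with a library left out was added after the data were seen. The fits were also run on simulated counts, whose set changes were larger than that of any fusion gene. No trend with GC content was simulated. That run therefore cannot test the GC correction or changes as small as those of the fusion genes.

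The members, lists and alternatives were chosen with earlier results of these data known. Besides the 10 members, the text names of each list the 2 genes with the highest level and the 2 with the smallest p-value (of marker lists, the first kind), close relatives with a count, and the 5 genes most like *Dcstamp*. Of the genes so chosen, 2 are not reported here. GC content and length are those of the longest transcript in GENCODE M21 on GRCm38, which holds 51884 of the genes, and promoters are from RefSeq, GRCm38.p6. Each value of a member rests on at least 790 estimated counts.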

Additional observations from a re-analysis of the deposited data

How the results depend on the processing

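Of the 10 fusion genes, 0 passed both limits with all libraries in edgeR, and also with DESeq2's size factors, library size alone, the legacy test, limma-voom, no filter, a minimum of 10 counts per library, or any library left out (0 in each), and with all libraries in edgeR at the other limits. At an adjusted p below 0.05 and the same fold change, *Dcstamp* passed with limma-voom, no filter, the minimum of 10 counts, and without KO replicate 1 or 3. In these fits 6, 16, 5, 20 and 11 of all genes tested passed, in the same order. *Dcstamp* also passed this looser limit with the replicate block, where 16 genes did, and with that block and the GC correction, where 36 did. With DESeq2's Wald test 4 fusion genes were among the 783 genes past the looser limit. At an adjusted p below 0.01 again, the counts of fusion genes past the limits were 2 with DESeq2's Wald test, 1 with the GC correction (*Dcstamp*), 3 with both, and 1 with the GC correction without KO replicate 1 or without KO replicate 3. The number of all tested genes past the limits was 1, and between 0 and 2 with a library left out. It was 126 with DESeq2, 3 with the GC correction and 337 with both. It was 89 with the correction without KO replicate 1 and 4 without KO replicate 3. The cause of these differences was not tested.

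Of 230 log2 fold changes of fusion genes under the 23 alternatives that refit them, 219 kept their direction. *Cd200r1* reversed from 0.077 to -0.15 with the GC correction, to -0.15 with it in DESeq2 and to -0.15 with it and the replicate block. With 1 library left out it was between -0.033 (without KO replicate 3) and 0.15. With the correction and a library left out it was -0.14, -0.16 and -0.15 without WT replicates 1, 2 and 3, and -0.18, -0.12 and -0.15 without KO replicates 1, 2 and 3. *Cd47* reversed to -0.022 with the correction without KO replicate 2.

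Same-numbered WT and KO libraries deviated together with r of -0.28, 0.11 and 0.22, so the numbers were not taken to pair the cultures. With the replicate block, 1 tested gene and 0 fusion genes passed the limits, and *Dcstamp* had a log2 fold change of 0.84 with an edgeR adjusted p = 0.0441. With the block and the GC correction these counts were 1 and 0, and *Dcstamp* had 0.77 with an edgeR adjusted p = 0.0154. With 3 libraries per genotype, KO replicate 3 was the KO library farthest from the WT mean for 8 of the 10 genes. This was not counted over all genes tested, so it is not given as a trait of the fusion genes. KO replicates 3 and 1 differed along GC content over the genes tested with a known GC content (r = -0.58).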
